A study of Mus musculus with 4 samples.

Results

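MAP kinase phosphatases and Sprouty proteins are the genes that growth factor signalling uses to switch itself off. The dual-specificity phosphatases encoded by Dusp genes remove phosphate from both the threonine and the tyrosine of the MAP kinases ERK, JNK and p38, and Sprouty proteins, encoded by Spry genes, act upstream on the path from receptor tyrosine kinases to Ras and ERK. Many of them are themselves transcribed in response to ERK activity, so they are widely used as a readout of the pathway, and in mesenchymal cells they are known to respond to fibroblast growth factor and to stress. The 10 genes described here were taken by name (Dusp1, Dusp4, Dusp5, Dusp6, Dusp7, Dusp10, Dusp16, Spry1, Spry2 and Spry4). All 10 were in the file, of 18200 genes in all, and 8 were tested. Dusp10 and Spry4 fell below the filter of a mean FPKM of 1.

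RNA of polysomes, that is messenger RNA with several ribosomes on it, came from mouse ADSCs in 4 libraries, all labelled with genotype WT. Of these, 2 carried the treatment label Scrambled and 2 the label IFIT1 knockdown, by a short hairpin RNA (sh-Ifit1) according to the design text, and replicates 1 and 2 of each group were in batches 1 and 2. Strain, age, number of animals and the separateness of the cultures are not given in the labels, so p-values reflect only how far these 4 libraries spread, and that spread may be technical. Levels are FPKM, the authors' fragment numbers normalised for gene length and sequencing depth. Differences are those of log2(FPKM + 1), libraries labelled knockdown minus libraries labelled scrambled, which understates the change of genes with low values. Total RNA was not analysed here, so how much messenger RNA was present and how much of it was on polysomes cannot be told apart, nor can fewer cells of a type and less RNA per cell.

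The libraries did not follow their labels for every gene. Ifit1, the gene named as the target, stood at 1.93 and 1.91 FPKM in the scrambled-labelled pair. It stood at 13.9 and 14.8 in the knockdown-labelled pair. Fragments of 4 Y-linked genes summed to 3 and 1 in the scrambled-labelled pair against 252 and 307. These Y-linked genes split by label, so the treatment cannot be told apart from a difference in the cells in any comparison below. The part of that difference in the results was not tested. Fragments recovered ranged from 24448952 to 29825482 per library. In 1631 of 8750 tested genes (18.6%), replicates differed by at least 0.2 on the log2 scale in both groups and in opposite directions, and in 7 in the same direction; this limit was chosen after the values were seen. In those 1631 genes the library labelled scrambled 1 lay a median of 0.02 from knockdown 2 and scrambled 2 a median of 0.03 from knockdown 1, while the median gap within either group was 0.38. Such genes made up 1617 of the 2741 (59.0%) that did not pass the test. None of the 8 tested Dusp and Spry genes was among them, and 8 genes are too few to set this apart from the 18.6%. Replicates of all 10 members differed by at most 0.10 in either group. Of the marker lists, 8 of 11 mesenchymal stromal genes were tested (6 higher, 2 lower), beside 27.4% higher and 41.2% lower among all tested genes. Thy1 rose most (mean 3.7 against 30.6 FPKM), and the 2 lower were Col1a1 (20.4 against 6.37) and Col1a2 (101 against 34.2). Eng, among the higher, reached the filter only through the knockdown-labelled pair. Below the filter were Pdgfra (mean 0.00586 against 0.119), Nt5e (0.0245 against 0.0116) and Pdgfrb (0.825 against 0.85). Only 2 of 7 leukocyte markers and 2 of 5 endothelial markers had entries. Those leukocyte markers summed to 0.401 to 0.449 FPKM in each library and those endothelial markers to at most 0.00932. Epithelial and mesothelial markers summed to 2.58 and 2.87 FPKM in the scrambled-labelled pair against 7.42 and 7.5. Of these 6 genes, Krt8 (mean 0.279 against 2.55) and Krt18 (0.47 against 2.89) rose. Both reached the filter only through the knockdown-labelled pair, where they were high. Msln did not pass (1.95 against 2.0), and Epcam, Cdh1 and Upk3b stood at 0.0172 FPKM or less in every library. Adipocyte markers, of which 3 of 6 had entries, summed to 5.65 and 5.67 against 2.43 and 2.48. The part of these marker lists in the results was not tested.

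The start sites of 3 phosphatase genes are shown because among the tested members Dusp1 had the largest decrease and Dusp6 the largest increase on the log2(FPKM + 1) scale, and Dusp5 differed least among the phosphatases tested. The sequences are the 250 bases before each start site, 5′ to 3′ on the gene's strand, from RefSeq on GRCm38.p6, at chr17:26508473-26508722 on the minus strand for Dusp1, chr19:53528895-53529144 on the plus strand for Dusp5 and chr10:99262981-99263230 on the plus strand for Dusp6. RefSeq entries matched 8 of the 10 members, all but Dusp4 and Spry4. Capitals mark motif matches.
Dusp1: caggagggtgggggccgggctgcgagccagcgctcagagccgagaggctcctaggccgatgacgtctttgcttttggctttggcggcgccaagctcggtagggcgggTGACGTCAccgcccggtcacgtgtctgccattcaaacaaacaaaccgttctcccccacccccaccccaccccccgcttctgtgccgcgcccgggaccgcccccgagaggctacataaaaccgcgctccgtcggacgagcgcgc
Dusp5: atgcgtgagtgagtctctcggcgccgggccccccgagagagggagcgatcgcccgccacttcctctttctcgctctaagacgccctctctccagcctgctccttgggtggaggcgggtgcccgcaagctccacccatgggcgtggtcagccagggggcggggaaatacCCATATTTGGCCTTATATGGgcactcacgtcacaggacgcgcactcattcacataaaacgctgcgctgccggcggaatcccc
Dusp6: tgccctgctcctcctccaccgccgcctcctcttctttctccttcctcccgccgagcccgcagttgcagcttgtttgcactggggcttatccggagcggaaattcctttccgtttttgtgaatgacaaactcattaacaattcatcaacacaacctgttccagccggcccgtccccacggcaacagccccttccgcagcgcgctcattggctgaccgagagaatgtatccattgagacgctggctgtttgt

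Both strands were searched for the cyclic AMP response element TGACGTCA, the AP-1 site TGANTCA, the ETS core CCGGAA, the interferon response core GAAANNGAA and the CArG box bound by serum response factor. Dusp1 held 1 cyclic AMP response element, whose first base lay 143 bases before the start site. Dusp5 held 2 CArG boxes side by side and without overlap, beginning 82 and 72 bases before the start. Dusp6 and the other 5 matched members held none of these letters in the window. Among 32817 promoters of the same length, 1.55% held the cyclic AMP response element, 6.75% the AP-1 site, 12.0% the ETS core, 7.12% the interferon response core and 1.47% the CArG box. A match describes the letters and does not show that a factor binds there.

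Of the 8 tested members, 3 were higher (Dusp4, Dusp6 and Spry1), 3 were lower (Dusp1, Dusp7 and Dusp16) and 2 did not pass (Dusp5 and Spry2) in the knockdown-labelled pair, by limma with an adjusted p under 0.05. Across all tested genes 68.7% passed, 27.4% higher and 41.2% lower, so a share of 75.0% among the members is close to that of genes at large. The median difference was 0.03 for the members and -0.02 for all tested genes. The median size of the difference, whatever its sign, was 0.68 for the members and 0.40 for all tested genes, and 2 members (Dusp1 and Dusp6) differed by at least 1, as did 8.79% of tested genes. No single direction ran through the group: the nuclear phosphatases Dusp1 and Dusp4 went opposite ways, as did the cytoplasmic Dusp6 and Dusp7.

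**Figure D1:**
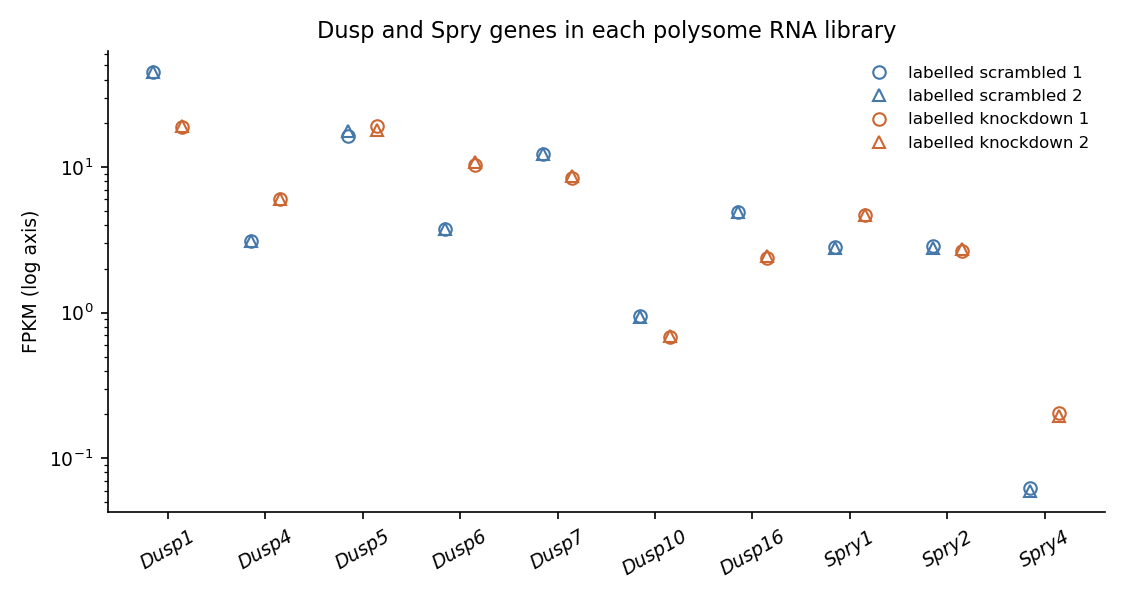
FPKM of the 10 Dusp and Spry genes (log axis) in each of the 4 libraries; circles are replicate 1 and triangles replicate 2, blue for libraries labelled scrambled and orange for those labelled knockdown. Replicates nearly coincide, and the groups lie apart most for Dusp1 (45.2 and 45.3 against 18.8 and 19.2), Dusp6 (3.77 and 3.76 against 10.4 and 10.9) and Spry4 (0.0629 and 0.0592 against 0.205 and 0.194).

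Dusp1, Dusp4 and Dusp5 encode nuclear phosphatases that are induced by mitogens and stress. Dusp1 (Entrez 19252), which acts on p38 and JNK as well as ERK, had 45.2 and 45.3 FPKM in the scrambled-labelled pair and 18.8 and 19.2 in the knockdown-labelled pair. Both of the latter were lower, by 2.38-fold between means of 45.2 ± 0.114 and 19.0 ± 0.292 (SD, n = 2). The values rested on 1412 and 1721 fragments against 721 and 676, and the log2 difference was -1.21 (SE 0.019, limma adjusted p = 1.6e-04); batch 1 gave -1.22 and batch 2 gave -1.19. Only 1.3% of tested genes had a lower difference.

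Dusp4 (Entrez 319520), a nuclear phosphatase of the same subclass, went the other way. Levels were 3.13 and 3.09 FPKM in the scrambled-labelled pair and 6.0 and 6.06 in the knockdown-labelled pair, so the groups did not overlap. The fold was 1.94 (95% counting interval 1.81 to 2.07), from 591 and 708 fragments against 1386 and 1285, with a log2 difference of 0.77 (SE 0.016, limma adjusted p = 1.6e-04).

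Dusp5 (Entrez 240672), a nuclear phosphatase specific for ERK, had 16.4 and 17.6 FPKM in the scrambled-labelled pair and 19.1 and 17.9 in the knockdown-labelled pair. The groups did not overlap, but the gap between them was smaller than the gap within either, and the log2 difference of 0.12 (SE 0.055) did not pass (limma adjusted p = 0.18). It was 0.21 in batch 1 and 0.02 in batch 2. Dusp5 was also the member whose replicates lay farthest apart for the fragments counted (956 and 1251 against 1364 and 1177), at 1.74 and 1.54 counting SDs, against at most 1.05 in any other member. With each library centred on its median, Dusp5 passed at 0.29 (limma adjusted p = 0.0087). Over the alternatives that kept all 4 libraries, other than crossed pairing, limma adjusted p ran from 0.0087 to 0.36. Dusp5 also passed with crossed pairing, that is scrambled 1 paired with knockdown 2 and scrambled 2 with knockdown 1. That pairing was chosen from the replicate gaps seen in these same libraries, so passing under it is no support.

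Dusp6 and Dusp7 encode cytoplasmic phosphatases that act on ERK. Dusp6 (Entrez 67603), a widely used marker of ERK activity, had 3.77 and 3.76 FPKM in the scrambled-labelled pair and 10.4 and 10.9 in the knockdown-labelled pair. Both libraries labelled knockdown were higher, and the fold of 2.82 (95% counting interval 2.62 to 3.05) rested on 390 and 473 fragments against 1321 and 1263. The log2 difference of 1.29 (SE 0.026, limma adjusted p = 1.6e-04) exceeded that of 97.8% of tested genes.

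Dusp7 (Entrez 235584), the close relative of Dusp6, was lower in the same libraries. It stood at 12.3 and 12.4 FPKM in the scrambled-labelled pair and at 8.40 and 8.64 in the knockdown-labelled pair, 1.45-fold lower without overlap. The log2 difference was -0.49 (SE 0.021, limma adjusted p = 3.3e-04), and 25.6% of tested genes had a lower one.

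Dusp10 and Dusp16 encode phosphatases that prefer JNK and p38. Dusp16 (Entrez 70686) had 4.95 FPKM in both scrambled-labelled libraries and 2.39 and 2.45 in the knockdown-labelled pair. It was 2.04-fold lower, from 860 and 1043 fragments against 509 and 479, with a log2 difference of -0.80 (SE 0.017, limma adjusted p = 1.6e-04). Dusp10 (Entrez 63953), below the filter, had 0.952 and 0.942 FPKM against 0.680 and 0.692. Without the filter Dusp10 passed at a log2 difference of -0.21 (limma adjusted p = 0.0014), a fold of 0.724 with a 95% counting interval of 0.639 to 0.821.

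Sprouty proteins bind adaptors of receptor tyrosine kinases and dampen Ras and ERK activation. Spry1 (Entrez 24063) had 2.84 and 2.77 FPKM in the scrambled-labelled pair and 4.71 and 4.68 in the knockdown-labelled pair. It was higher in both of the latter, 1.67-fold (95% counting interval 1.5 to 1.87), with a log2 difference of 0.58 (SE 0.018, limma adjusted p = 1.9e-04). Spry2 (Entrez 24064) started at nearly the same level as Spry1 and did not pass.

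Spry2 had 2.86 and 2.79 FPKM in the scrambled-labelled pair and 2.64 and 2.74 in the knockdown-labelled pair, a log2 difference of -0.05 (SE 0.023, limma adjusted p = 0.15). The fold was 0.953, with a 95% counting interval of 0.869 to 1.05, which includes 1. Its sign depended on the scaling: 0.12 with libraries centred on their medians, 0.06 after quantile normalization and 0.22 with a length trend taken out (adjusted p = 0.078, 0.31 and 0.004; 0.004 to 0.49 over the alternatives other than crossed pairing). With crossed pairing Spry2 passed at -0.05 (limma adjusted p = 0.0013). As that pairing was chosen from the replicate gaps of these libraries, this pass is no support. Spry4 (Entrez 24066), the rarest member, had 0.0629 and 0.0592 FPKM against 0.205 and 0.194. From 21 and 24 fragments against 84 and 73, Spry4 was 3.28-fold higher (95% counting interval 2.35 to 4.56), and without the filter it passed at a log2 difference of 0.18 (limma adjusted p = 8.8e-04), a value held down by the pseudocount.

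**Figure D2:**
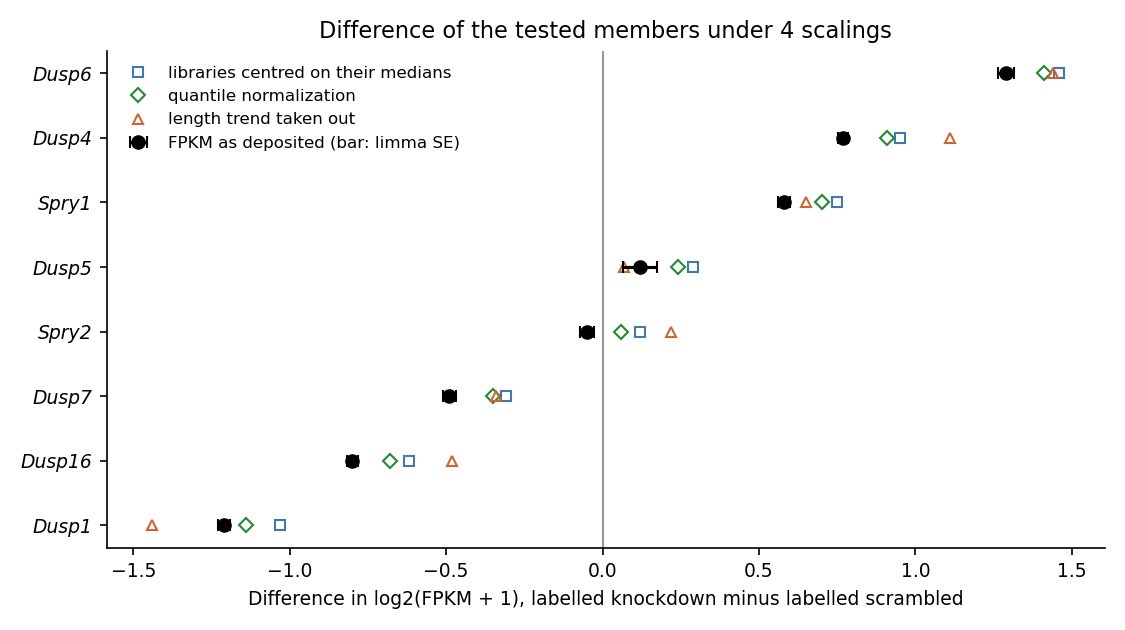
Difference in log2(FPKM + 1), libraries labelled knockdown minus those labelled scrambled, for the 8 tested members; black points with bars are the values as deposited with the limma SE, and open symbols are the same difference under 3 other scalings. Dusp6, Dusp4 and Spry1 stay above 0 and Dusp7, Dusp16 and Dusp1 below 0 under each scaling shown, Dusp5 lies between 0.07 and 0.29, and Spry2 changes sign.

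When every library was centred on its median, the median difference of all tested genes went from -0.02 to 0.15, and the members moved with it. Dusp1 then stood at -1.03, Dusp16 at -0.62 and Dusp7 at -0.31, with Spry1 at 0.75, Dusp4 at 0.95 and Dusp6 at 1.46, and these 6 passed there too. Over 8693 genes (genes are not independent replicates) the difference fell with the gene length implied by fragments and FPKM (Spearman rho -0.38). With that trend taken out Dusp4 rose to 1.11 and Dusp1 stood at -1.44, while Dusp16 came to -0.48. Over the tested genes the median SE came to 0.0208 and the median counting error to 0.0382, and replicates of the members other than Dusp5 lay 0.02 to 1.05 counting SDs apart. Replicates that each carry their own counting error are not expected to give a lower median SE than that error, so the p-values printed here can be too small. With standard errors held at or above the counting error, a setting added after seeing the values, adjusted p ranged from 7e-04 (Dusp6) to 0.005 (Spry1) in the 6 members that passed.

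Because FPKM are per length, the members could be ranked within a library, and the order changed between the groups. In the libraries labelled scrambled Dusp1 led at a mean of 45.2 FPKM, followed by Dusp5 (17.0), Dusp7 (12.3), Dusp16 (4.95), Dusp6 (3.77), Dusp4 (3.11), Spry2 (2.82), Spry1 (2.81), Dusp10 (0.947) and Spry4 (0.061). Only Spry2 and Spry1 overlapped between neighbouring places there. In the libraries labelled knockdown Dusp1 (19.0) and Dusp5 (18.5) overlapped at the top, Dusp6 (10.6) stood above Dusp7 (8.52), and Dusp4 (6.03), Spry1 (4.69), Spry2 (2.69), Dusp16 (2.42), Dusp10 (0.686) and Spry4 followed. The groups did not overlap for any of the 10 members, as was the case for 74.5% of tested genes.

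Ratios between 2 members within a library do not change when that library is scaled by a single factor. Dusp1 over Dusp6 was 12.0 in both scrambled-labelled libraries and 1.81 and 1.77 in the knockdown-labelled pair. This ratio sets the tested member with the largest decrease against that with the largest increase, so its fall follows from that choice. Dusp1 over Dusp4, both nuclear, also fell, from 14.4 and 14.7 to 3.14 and 3.17. Dusp6 over Dusp7, both cytoplasmic and acting on ERK, went from 0.306 and 0.304 to 1.24 and 1.26, so the more abundant of that pair was Dusp7 in one group and Dusp6 in the other. Spry1 over Spry2 was 0.993 and 0.994 against 1.78 and 1.71. The 7 listed phosphatases summed to 86.6 and 88.1 FPKM against 65.8 and 65.9, and Dusp1 alone made up 52.1% and 51.5% of that sum against 28.6% and 29.2%. Sum and share depend on the list. Dusp9, outside it and named after its values were seen, had 39.3 and 39.0 FPKM against 44.4 and 45.4. Summed Sprouty FPKM was 5.76 and 5.62 against 7.56 and 7.61. These ratios and sums are descriptions with no test of their own.

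**Figure D3:**
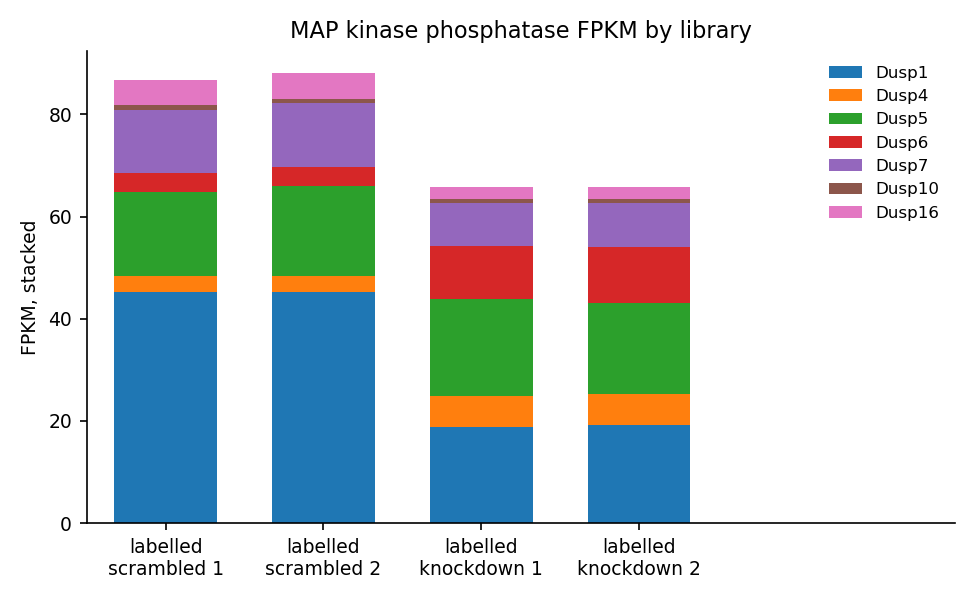
Stacked FPKM of the 7 listed Dusp genes in each of the 4 libraries, from 0. Dusp genes outside the list are not drawn. The total is 86.6 and 88.1 in the scrambled-labelled pair and 65.8 and 65.9 in the knockdown-labelled pair; the Dusp1 segment (blue) shrinks while the Dusp6 (red) and Dusp4 (orange) segments grow.

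Genes of the kinase cascades these phosphatases act on went in both directions. So did tested genes at large, with 27.4% higher and 41.2% lower. Over all pathway lists, the RNA quality list among them, 33 of 95 tested genes were higher and 36 lower. The counts of each list are descriptions to be read beside these shares. Of the 13 tested genes of the Raf, MEK and ERK list, 4 were higher, 7 lower and 2 did not pass, with a median of -0.26. Mapk3, which encodes the kinase ERK1, rose most in that list, from 112 and 111 FPKM to 192 and 195 (log2 0.80, limma adjusted p = 1.6e-04). Of the 18 tested genes of the p38, JNK and ERK5 list, 3 were higher, 10 lower and 5 did not pass, with a median of -0.17. Mapk14, the main p38 kinase, fell furthest there, from 26.3 and 26.1 FPKM to 9.13 and 9.34 (log2 -1.41), and Mapkapk3, a kinase downstream of p38, rose most (log2 0.48).

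The JNK genes differed less between the groups. Mapk8 (JNK1) had 6.89 and 5.30 FPKM in the scrambled-labelled pair and 5.2 and 6.8 in the knockdown-labelled pair, with scrambled 1 next to knockdown 2 and scrambled 2 next to knockdown 1. Its log2 difference of -0.02 did not pass (limma adjusted p = 0.99), at -0.35 in batch 1 and 0.31 in batch 2. Mapk9 (JNK2) passed at -0.16 (limma adjusted p = 0.011), but not with libraries centred on their medians (0.01, adjusted p = 0.86) nor with the replicate block (adjusted p = 0.066), and the adjusted p exceeded 0.05 when either library labelled scrambled (0.082 without scrambled 1, 0.056 without scrambled 2) or that labelled knockdown 1 (0.052) was left out. With a length trend taken out it was 0.14 (adjusted p = 0.018).

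Upstream, the lists were split as well, as were tested genes at large (27.4% higher and 41.2% lower). Of 14 tested adaptors, Ras genes and Ras regulators, 5 were higher, 8 lower and 1 did not pass (median -0.27). Frs2 and Sos1, among the lower, reached the filter only through the scrambled-labelled pair. Rras, a Ras-related GTPase, rose from 60.5 and 59.4 to 137 and 135 FPKM, and Crkl, an adaptor, fell from 9.86 and 9.81 to 4.07 and 4.14. Only 5 of 22 receptors and ligands were tested, with 1 higher, 1 lower and 3 not past (median 0.23, with 0.35 in batch 1 and -0.01 in batch 2). The ligand Fgf7 rose (log2 0.37), and the receptor Fgfr1 fell (log2 -0.40) but stood at -0.03 with a length trend taken out (adjusted p = 0.27).

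**Figure D4:**
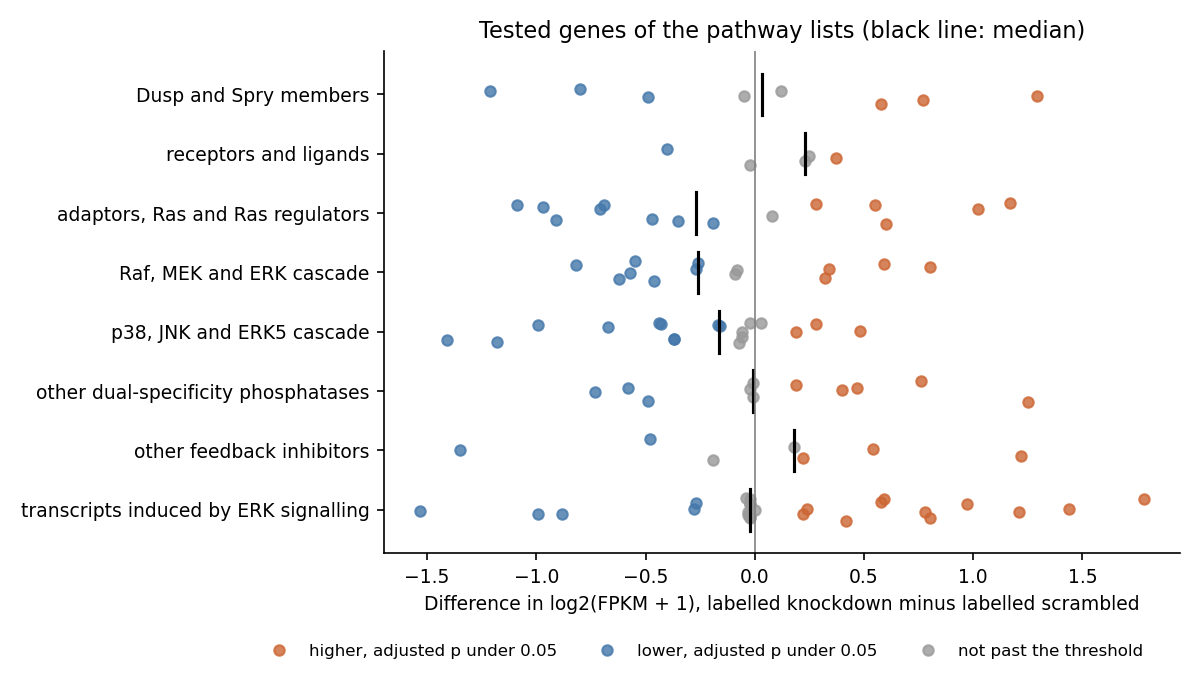
Difference in log2(FPKM + 1) of the tested members and of the tested genes of 7 pathway lists (the RNA quality list is not drawn), libraries labelled knockdown minus those labelled scrambled; orange points were higher and blue points lower with an adjusted p under 0.05, grey points did not pass, and black lines are medians. Each list drawn has genes on both sides of 0, and the grey points of the ERK-induced list crowd at its median of -0.02.

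Other phosphatases and feedback inhibitors also had genes in both directions, beside 27.4% higher and 41.2% lower among all tested genes. Of 11 tested genes on the list of other dual-specificity phosphatases, 5 were higher, 3 lower and 3 did not pass (median -0.01). Among the higher, Dusp23 and Styx reached the filter only through the knockdown-labelled pair. Among the lower, Dusp18 reached it only through the scrambled-labelled pair. Dusp28 had 2.15 and 2.04 FPKM against 6.60 and 6.12 (log2 1.25), and Dusp11, which acts on RNA ends, had 14.4 and 14.2 against 8.20 and 8.34 (log2 -0.73). Of 7 tested feedback inhibitors, 3 were higher, 2 lower and 2 did not pass (median 0.18). Spred3, among the higher, reached the filter only through the knockdown-labelled pair. Errfi1, an inhibitor of the EGF receptor family, rose from 19.6 and 19.4 to 46.8 and 46.9 FPKM, and Rasa3, a Ras GTPase activator, fell from 16.8 and 16.7 to 5.91 and 6.05. Spred1, a relative of the Sprouty proteins, had 4.05 and 4.68 FPKM against 3.94 and 3.48 and did not pass (log2 -0.19, limma adjusted p = 0.18).

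The list of transcripts induced by ERK signalling had 11 higher, 5 lower and 10 not past among 26 tested. Lif, among the higher, reached the filter only through the knockdown-labelled pair. All tested genes had 27.4% higher and 41.2% lower. The median of the list was -0.02 (0.29 in batch 1 and -0.09 in batch 2). The ETS factors of this list that passed were all higher. Etv4 had 10.6 and 10.5 FPKM against 38.5 and 38.4 (log2 1.78), and Etv5 had 2.20 in both scrambled-labelled libraries against 4.52 and 4.63 (log2 0.80, limma adjusted p = 1.6e-04 for each). Elk1 and Elk3, named after their values were seen, stood at 0.97 (limma adjusted p = 1.8e-04) and -0.02, the latter not past and with 5.69 and 7.48 FPKM against 7.31 and 5.63. Ccn1, a matricellular gene, fell furthest, by 1.53 on the log2 scale. Of the immediate-early genes, Egr1 had 57.4 and 79.2 FPKM in the scrambled-labelled pair and 77.2 and 56.9 in the knockdown-labelled pair, and Fos had 3.14 and 4.45 against 4.34 and 3.12. In both genes scrambled 1 matched knockdown 2 and scrambled 2 matched knockdown 1. Egr1 was 0.42 in batch 1 and -0.47 in batch 2, and Fos 0.37 and -0.40; neither passed (limma adjusted p = 0.99 for each). Of the 10 genes of this list that did not pass, 7 had replicates at least 0.2 apart in both groups in opposite directions. Among all genes that did not pass 59.0% did so, and 10 genes are too few to set the list apart. Among the RNA quality genes, 1 of 6 long noncoding RNAs was tested, Gas5, with 124 and 119 FPKM against 379 and 351. Below the filter, and named after their values were seen, the nuclear Malat1 had 1.12 and 1.10 FPKM against 0.505 and 0.514 and Neat1 had 0.807 and 0.822 against 0.423 and 0.438, both lower without the filter (limma adjusted p = 3.7e-04 and 5.1e-04). The part of these RNAs in the results was not tested.

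**Figure D5:**
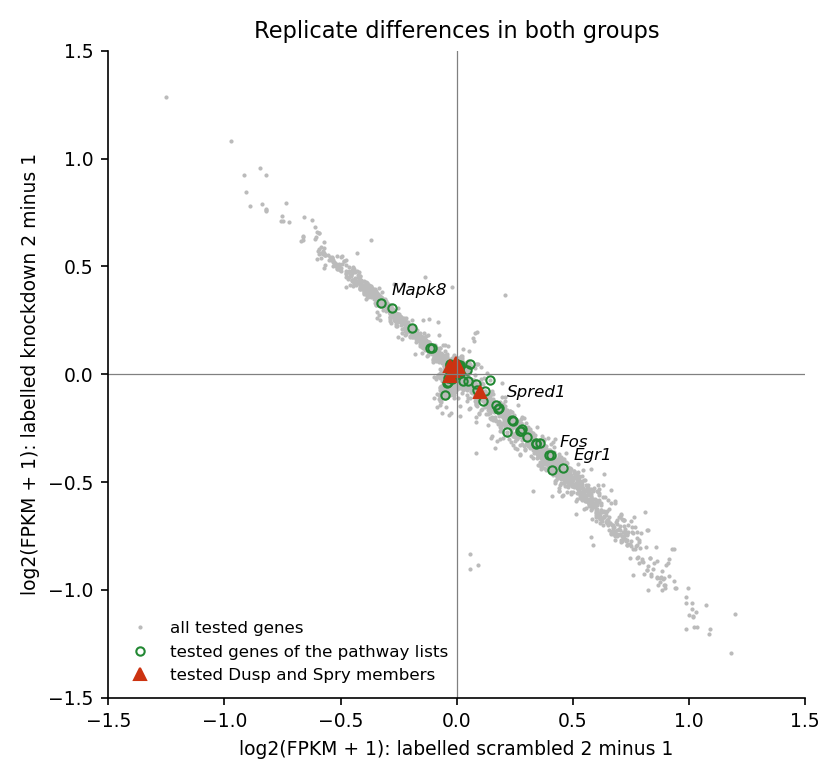
Replicate 2 minus replicate 1 in log2(FPKM + 1), in the scrambled-labelled pair (horizontal) and knockdown (vertical), for all tested genes (grey; 6 lie outside the axes), tested genes of the pathway lists (green circles) and tested Dusp and Spry genes (red triangles). Genes spread along the falling diagonal, with Egr1, Fos and Mapk8 far out on it, while the members lie at the centre, Dusp5 farthest from it.

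For the 3 members with the largest differences that passed, the tested gene with the nearest profile over the 4 libraries was sought, each profile centred on its own mean. It was Trim21 for Dusp6 (Euclidean distance 0.012 on the log2 scale), Etv6 for Dusp1 (0.0066) and Gak for Dusp16 (0.0045). Within a distance of 0.1 lay 56 genes for Dusp6, 118 for Dusp1 and 643 for Dusp16. With 4 libraries in 2 tight groups, such likeness mostly measures an equal difference between the groups in log2(FPKM + 1). In FPKM, Trim21 was 6.54-fold higher (0.345 and 0.348 against 2.22 and 2.32) and Dusp6 2.82-fold. With a pseudocount of 0.1 they stood at 2.41 and 1.47. Trim21 reached the filter only through the knockdown-labelled pair.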

How the data were processed

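The authors' deposited FPKM for 4 libraries were used as they stand, and 0 other columns of samples were present. Per the labels' protocols, messenger RNA was captured on beads, fragmented by heat and made into cDNA. Per the submitters' processing notes the builds are GRCm38, mm10 and GRCm39, with no role given and with aligner, counter, annotation and strandedness not given in the sources used here.

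The 8750 of 18200 genes whose mean FPKM reached 1 were compared on log2(FPKM + 1) by limma 3.58.1 (R 4.3.3; lmFit, then eBayes with a trend), two-sided, Benjamini-Hochberg over all tested genes. Whole fragments, as smallest numbers, were recovered for 99.3% of tested genes from low-value ratios; a gene's true numbers can be a multiple, and counting intervals (95%) cover counting error only. Recovery and fit were tested on simulated data. Figures used Python 3.11.15 and matplotlib 3.10.9.

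The members and lists were chosen with earlier results of these data known. Named genes were the members, Ifit1, the called gene with the largest rise and fall of each list, some preset kinases and targets, and nearest profiles. Others are marked. Cell type markers and genes named because they reached the filter through a single pair were named after their values were seen. Replicate number and batch coincide in the labels, which pairs libraries; the replicate differences of the groups correlated at Pearson's r = -0.83 over 8750 genes. Alternatives were the pseudocount, filter, scaling, block and leaving out each library. A gene that the rule names is not reported here.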

Additional observations from a re-analysis of the deposited data

How the results depend on the processing

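The 6 members that passed kept their direction and their side of the threshold under all 12 alternatives run. Crossed pairing, which is among the 12, was chosen from these data and adds no support. The members called ranged from 3 to 4 higher and from 3 to 4 lower, and stayed at 3 and 3 when any library was left out. Without the filter 3819 genes were higher, against 2401, with more genes tested. With 1 library left out, 2187 to 2283 genes were higher and 3432 to 3460 lower, and 32 to 33 and 35 genes of the pathway lists (33 and 36 with all 4 libraries, 36 and 29 after median-centring, 37 and 29 with the length trend taken out); a group with 1 library is then assumed to vary like the other. With the replicate block, 2205 genes were higher and 3417 lower, and it ended the call of Mapk9 alone among the genes named. The pairing of scrambled 1 with knockdown 2 and scrambled 2 with knockdown 1 gave 2962 higher and 4282 lower genes. It gave 4 and 4 members, Dusp5 and Spry2 being those added. This pairing was added after the data were seen, from the replicate gaps of the same libraries, so its counts are no support. A length was to be taken from the file where it gave one; it gave none, so the length implied by fragments was used, an alternative added after the data were seen.

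Signs that turned belonged to genes near 0. Median-centring gave 0.15 for Egr1, Fos and Mapk8, 0.01 for Mapk9 and 0.12 for Spry2. Quantile normalization gave 0.11 for Fos, 0.13 for Mapk8 and 0.06 for Spry2. Taking out the length trend gave 0.11 for Egr1, 0.31 for Mapk8, 0.14 for Mapk9, 0.18 for Spred1 and 0.22 for Spry2. Leaving out 1 library gave -0.25 to 0.20 for Egr1, -0.22 to 0.18 for Fos and -0.19 to 0.14 for Mapk8. Dusp5 passed at 0.29 after median-centring, which shifts the difference of every tested gene by the same amount. It passed at 0.24 after quantile normalization, and the cause there was not tested. Fragment numbers limit Spry4 most, with 21 in the library labelled scrambled 1.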

Other observations

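The genes below were chosen after their values were seen. Dusp9, a cytoplasmic MAP kinase phosphatase related to Dusp6 and Dusp7, stood at 39.3 and 39.0 FPKM in the scrambled-labelled pair, above every member but Dusp1, and at 44.4 and 45.4 in the knockdown-labelled pair (log2 0.19, limma adjusted p = 0.0037). Dusp8, a phosphatase of JNK and p38, had 1.22 and 1.81 FPKM in the scrambled-labelled pair and 1.76 and 1.21 in the knockdown-labelled pair, so it followed the crossed pattern of Egr1 and Fos. Dusp2, an inducible nuclear phosphatase below the filter, did the same at 0.250 and 0.569 against 0.533 and 0.256, from 13, 36, 34 and 15 fragments. Spred3, a relative of the Sprouty proteins, rose from 0.814 and 0.804 to 1.62 and 1.64 FPKM (log2 0.54). It reached the filter only through the knockdown-labelled pair, where it was high. Spred2, another relative and below the filter, had 0.422 and 0.466 FPKM in the scrambled-labelled pair against 0.463 and 0.426. Of the ERK-induced transcripts, Maff rose from 23.5 and 23.4 to 65 and 65.9 FPKM, while Myc fell from 55.2 and 55.5 to 27.0 and 27.6.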
